A study of Rattus norvegicus with 8 samples.

Results

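The miR-379 to miR-410 cluster is a run of miRNA genes in the imprinted Dlk1-Dio3 region, and its mature miRNAs were followed here in exosomes, vesicles bounded by a membrane that cells shed into their surroundings. Members were chosen by name alone. They are the rat rows placed on chromosome 6 whose miRNA number is 1 of the 30 numbers of the cluster, summed per mature name. This gave 44 mature miRNAs from 29 hairpins, of 1273 mature names in the whole table. For 15 hairpins both arms had a row and for 14 a single arm, and 27 of the 30 numbers were found. By arm, 17 members were 5p miRNAs, 25 were 3p miRNAs and 2 carried no arm in the name. In the deposited coordinates the hairpins lie on the plus strand of chromosome 6 between 133857678 and 133894073, a span of 36396 bp. The sources used here name no genome build for them.

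The exosomes came from the soft centre of the rat intervertebral disc, the nucleus pulposus. Nucleus pulposus cells (NPC) gave 4 small RNA libraries and nucleus pulposus progenitor cells (NPPC) gave another 4. All 8 libraries are labelled rat intervertebral disc and differ in the labels only in the cell type. The sources used here do not state strain, age, passage or how progenitors were obtained. They also do not state whether each library had its own culture or animal. The p-values therefore measure the spread of these libraries alone, and that spread may be technical. RNA was taken from vesicles, so fewer vesicles of a kind and less of a miRNA per vesicle cannot be told apart.

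Genes of the Dlk1-Dio3 region are expressed from 1 parental allele. The paternal copy gives the coding genes Dlk1, Rtl1 and Dio3, and the maternal copy gives the long noncoding RNA Meg3 and the miRNAs, which are cut from a long maternal transcript. In the RefSeq annotation of GRCr8 the order is Dlk1, Meg3, Rtl1, Mir127, Mir379, Mir410 and Dio3. The cluster is known from neurons, where the transcription factor Mef2 induces it and miR-134, miR-329 and miR-381 act in dendrite growth, and from embryonic and mesenchymal cells. Each hairpin is then cut from the shared transcript and processed to its own mature arms, which cells load into Argonaute proteins and in part export in vesicles.

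The sequences below are those of the 12 members with the highest mean level, which carry most of the cluster's counts, and of the members that share a seed with them. Each is the mature miRNA of RefSeq (GRCr8, all 44 members matched), written 5′ to 3′ with the seed, bases 2 to 8, in capitals.
miR-541-5p: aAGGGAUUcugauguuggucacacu
miR-494-3p: uGAAACAUacacgggaaaccucu
miR-379-5p: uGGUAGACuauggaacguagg
miR-134-5p: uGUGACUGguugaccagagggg
miR-381-3p: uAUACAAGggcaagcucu
miR-382-5p: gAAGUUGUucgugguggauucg
miR-300-3p: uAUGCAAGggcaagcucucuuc
miR-411-5p: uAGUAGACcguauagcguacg
miR-409a-3p: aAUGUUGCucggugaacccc
miR-411-3p: uAUGUAACacgguccacuaa
miR-382-3p: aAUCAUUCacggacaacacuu
miR-409a-5p: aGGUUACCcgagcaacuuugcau
miR-539-3p: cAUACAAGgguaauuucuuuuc
The first 12 have 12 different seeds, and miR-539-3p carries the seed of miR-381-3p.

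The deposited table gives the sequence that the authors' pipeline found for each row, and this differs from the RefSeq form in 15 of 44 members, always at an end and in 0 members by a base substitution. In 5 members the 5′ end, and with it the seed, is moved: miR-379-3p, miR-376a-5p, miR-485-3p, miR-377-3p and miR-409a-3p. The deposited forms of 4 members are shown because a seed or a neighbour turns on them.
miR-379-3p, deposited: uAUGUAACaugguccacuaac
miR-411-3p, deposited: uAUGUAACacgguccacuaac
miR-409a-3p, deposited: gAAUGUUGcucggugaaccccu
miR-381-3p, deposited: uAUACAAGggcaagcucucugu
In their deposited forms miR-379-3p and miR-411-3p have 1 seed in common and differ over 21 bases by U10C, counted from the 5′ end of miR-379-3p. The RefSeq form of miR-379-3p begins 1 base earlier and has another seed, UAUGUAA. Of the 352 member values 8 were not whole numbers, and these lie in miR-379-3p and miR-411-3p, so the split of reads between them is uncertain. Over 22 bases miR-300-3p and the deposited miR-381-3p differ by G4A, U21G and C22U, counted from the 5′ end of miR-300-3p. No member shared its deposited sequence with another row. Inside the span lay 5 more rows that the rule leaves out, with at most 26 counts in a library, and 6 rows named after other species carry a number of the cluster, with at most 23.

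Library totals ran from 329011 to 681591 counts in NPC and from 819845 to 1416940 in NPPC. NPC replicate 1 was the shallowest, and it stood apart: its TMM scaling factor was 1.64, against 0.871 to 1.01 in the other 7 libraries. Over 252 rat miRNAs outside the cluster, its level relative to the other NPC libraries went with GC content with a Pearson correlation of 0.77 and a Spearman correlation of 0.85, a description over miRNAs of 1 library. Mesenchymal miRNAs (miR-199a, miR-214, miR-143, miR-145) were detected with all 5 list members, summing to 142416 to 215324 CPM over the 8 libraries, where CPM is the count scaled to a common library size by TMM. All 4 cartilage and disc miRNAs (arms of miR-140 and miR-455) were detected too, summing to 11468 to 16159 CPM in NPC and, without overlap, to 8645 to 9286 CPM in NPPC. A single arm, miR-140-3p, made up most of this sum, with means of 11442 CPM in NPC and 7252 CPM in NPPC. The sum therefore says little of the other arms. Skeletal muscle miRNAs, of which 2 of 4 passed the filter on low counts, did not overlap either, at 14.9 to 181 CPM in NPC and 190.4 to 225 CPM in NPPC. Here miR-499-5p made up most of the sum, with means of 108 CPM in NPC and 173 CPM in NPPC. Neural miRNAs, of which 3 of 7 passed that filter, summed to 776 to 1107 CPM in NPC and 836 to 849.6 CPM in NPPC. Most of this was miR-128-3p, with means of 863 and 744 CPM. Erythrocyte miRNAs summed to 373 to 583 CPM in NPC and 198 to 1416 CPM in NPPC, and leukocyte miRNAs to 33.5 to 363 and 320 to 449 CPM. Endothelial miRNAs summed to 277 to 756 and 461 to 679 CPM, and epithelial miRNAs to 37.2 to 115 and 59.2 to 133 CPM. The groups overlapped in each of these lists. The part of these lists in the cluster's levels was not tested.

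The cluster took under 0.5% of the counts in every library. Its members held 0.313%, 0.331%, 0.302% and 0.321% of all counts in NPC libraries 1 to 4, and 0.408%, 0.362%, 0.329% and 0.340% in NPPC libraries 1 to 4. The highest share was that of NPPC replicate 1, and the groups overlapped, since NPC replicate 2 lay above NPPC replicate 3. The NPC mean was 0.317% ± 0.0120 (SD, n = 4) and the NPPC mean 0.360% ± 0.0351 (SD, n = 4), a difference of 0.0430 percentage points, or 0.0268 without NPPC replicate 1. Between libraries with the same number the NPPC share was higher in 4 of 4, by 0.0953, 0.0309, 0.0268 and 0.0189 percentage points for numbers 1 to 4. The share was not tested. The Wilson 95% intervals of single libraries, which cover counting error only, ran from 0.295% to 0.333% in NPC replicate 1 and from 0.395% to 0.422% in NPPC replicate 1. This share needs no scaling factor between libraries. It was made of 1030, 2044, 2061 and 1726 counts in NPC and of 3348, 3943, 4665 and 4457 counts in NPPC.

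**Figure D1:**
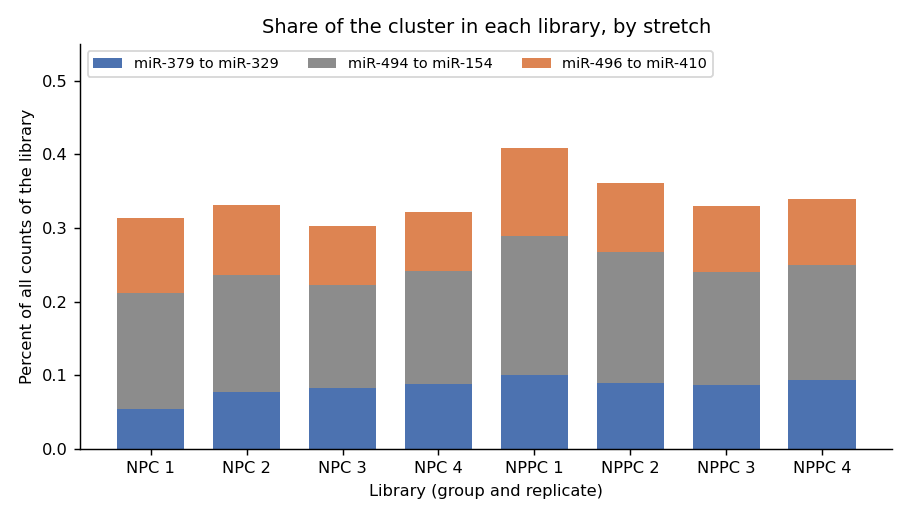
Share of all counts of a library (percent, vertical axis) that lay in the cluster, for the 4 NPC and 4 NPPC libraries, stacked by 3 stretches of the cluster in genome order. The stacks reach 0.302% to 0.331% in NPC and 0.329% to 0.408% in NPPC, and the lowest stretch, miR-379 to miR-329, is thinnest in NPC replicate 1.

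The cluster's counts were also divided among 3 stretches in genome order, and the difference between groups was not tested for these shares. The upstream stretch, miR-379 to miR-329, held 23.9% ± 4.73 (SD, n = 4) of the cluster's counts in NPC and 25.8% ± 1.44 (SD, n = 4) in NPPC. NPC replicate 1 had the lowest value of this stretch, 17.4%. The middle stretch, miR-494 to miR-154, had 48.02% ± 1.57 (SD, n = 4) and 46.9% ± 1.51 (SD, n = 4) in this order. The downstream stretch, miR-496 to miR-410, had 28.1% ± 3.32 (SD, n = 4) and 27.3% ± 1.39 (SD, n = 4). In every stretch the groups overlapped. The 5 most abundant members made up 52.6% ± 2.14 (SD, n = 4) of the cluster in NPC exosomes and 51.5% ± 2.00 (SD, n = 4) in NPPC exosomes.

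Levels within the cluster spread widely although the miRNAs share a precursor transcript. Of the 44 members, 26 from 20 hairpins passed the filter on low counts and were tested, with mean levels from 13.7 to 599.7 CPM and a median of 79.4 CPM. The most abundant member, miR-541-5p, ranked 102 among the 390 mature names tested. The other 18 members never exceeded 20 counts in a library. Of all members, 17 were above 0 in all 8 libraries, 8 were at 0 in all 4 NPC libraries with at most 17 counts in an NPPC library, and 3 were at 0 in all 4 NPPC libraries with at most 8 counts in an NPC library. The 8 were miR-376a-5p, miR-376b-5p, miR-376c-3p, miR-377-3p, miR-377-5p, miR-539-5p, miR-541-3p and miR-667-3p, and the 3 were miR-154-3p, miR-667-5p and miR-758-3p. The NPPC libraries were deeper, and no share over all names is given for these patterns, so nothing is drawn from the split.

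More members were listed above 0 in the deeper NPPC libraries. Their number was 22, 30, 26 and 29 in NPC libraries 1 to 4 and 31, 36, 36 and 37 in NPPC libraries 1 to 4, without overlap. Every library was also thinned to 329011 counts, with values then under 5 set to 0. The number was then 22, 27, 23 and 24 in NPC and 26, 25, 27 and 27 in NPPC, and the groups overlapped. The smallest member value above 0 was 5 counts, so a 0 here means that the miRNA is listed at 0, and no limit was drawn from it.

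The series asks which miRNAs differ between NPPC and NPC exosomes. In edgeR's quasi-likelihood test, two-sided and adjusted by Benjamini-Hochberg over 390 mature names, 0 of the 26 tested members had an adjusted p under 0.05, and the smallest was 0.380. Over all names 1 passed (0.256%), miR-146a-5p, which is no member, and 0 passed with the replicate number as a block. DESeq2 and limma-voom also called 0 members. At an unadjusted p under 0.05 stood 3 members, miR-411-3p, miR-487b-3p and miR-300-3p, all higher in NPPC. Over all names 16 were higher (4.1%) and 25 lower (6.41%) at that threshold, a split of 10 and 33 with total count scaling and of 21 and 17 with upper-quartile factors. DESeq2 and limma-voom each put 4 members under that threshold, all higher. Beside them stood 21 names higher and 33 lower by DESeq2, and 24 higher and 25 lower by limma-voom, of 390 tested. With the replicate block miR-300-3p was no longer under that threshold and miR-495 was, beside miR-411-3p and miR-487b-3p. Over all names 19 were then higher and 29 lower.

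Most tested members had a higher fitted level in NPPC exosomes, and none of these differences passed the test. Fold changes are given as log2 of NPPC over NPC. They were above 0 in 20 members and below 0 in 6, ranging from -0.29 to 2.41 with a median of 0.47. Over all 390 names 190 were above 0 (48.7%) with a median of -0.038, and over the 278 rat names 167 were above 0 (60.1%) with a median of 0.19. Without NPC replicate 1 the members' median was 0.20, and that of all names -0.051. In that fit 2 of 27 tested members, miR-411-3p and miR-495, were higher at an unadjusted p under 0.05, beside 38 of 427 names (8.9%), and 0 members were lower, beside 48 names (11.2%). Fold changes were above 0 in 19 of the 27, beside 196 of the 427 (45.9%). With total count scaling, which moved the median of all names to -0.29, the members' median was 0.32. A miRNA can pass the filter through a single group: 16 of the 26 reached its cutoff of 13.32 CPM in all 4 NPC libraries and 10 in fewer. Of those 16, 11 had a fold change above 0 and 5 below, with a median of 0.30, beside 129 of 271 names and a median of -0.045 over all names at the cutoff in those libraries. Of the 10, 9 were above 0, so counts and medians over all 26, or over families of them, are no support for a difference. In 4 members the groups did not overlap, and all 4 were higher in NPPC: miR-411-3p, miR-495, miR-494-3p and miR-376b-3p. Over all names this was so of 24 (6.15%), with 18 (4.62%) lower in NPPC.

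**Figure D2:**
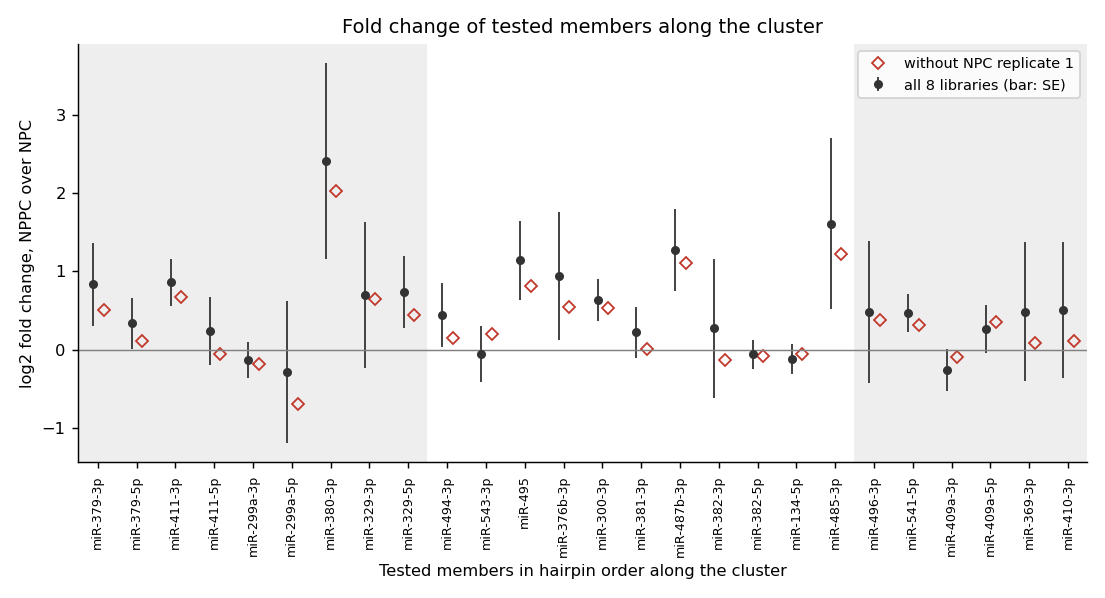
Log2 fold change of NPPC over NPC (vertical axis) for the 26 tested members in hairpin order along the cluster, with bars of 1 SE, and the same without NPC replicate 1 as open diamonds. The shaded bands mark the upstream and downstream stretches. The points with all 8 libraries run from -0.29 to 2.41, with a median of 0.47. Without NPC replicate 1 the median over the 27 members tested in that fit was 0.20. Those 27 include miR-380-5p, which is not plotted.

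The family of miR-379, miR-411, miR-299 and miR-380 lies at the upstream end, and its miRNAs are close paralogs. Of its 8 mature names 7 were tested, 5 had a fold change above 0 and 2 below, and the median was 0.34. None had an adjusted p under 0.05. The founding miRNA, miR-379-5p (hairpin at 133857678 to 133857801), stood at 123, 258, 371 and 334 CPM in NPC libraries 1 to 4 and at 352, 337.2, 328.9 and 355 CPM in NPPC libraries 1 to 4. NPC replicate 1 was the low library, and the groups overlapped, since NPC replicate 3 was the highest of all 8. The NPC mean was 271 ± 109.7 CPM (SD, n = 4) and the NPPC mean 343 ± 12.2 CPM (SD, n = 4). The log2 fold change of miR-379-5p was 0.34 ± 0.32 (SE), with an adjusted p of 0.644, and 0.11 without NPC replicate 1.

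Next to it, the 3p arm of miR-411 (hairpin at 133858814 to 133858948) had the smallest p of the cluster. miR-411-3p stood at 41.0, 67.9, 94.5 and 88.7 CPM in NPC libraries 1 to 4 and at 109, 135, 146 and 141 CPM in NPPC libraries 1 to 4. The groups did not overlap, and NPC replicate 1 was the lowest library. Means were 73.0 ± 24.2 CPM (SD, n = 4) and 132 ± 16.5 CPM (SD, n = 4). Its log2 fold change was 0.86 ± 0.30 (SE), with an unadjusted p of 0.0211 and an adjusted p of 0.380. Without NPC replicate 1 the log2 fold change was 0.68 with an adjusted p of 0.140. Over 23 alternatives the log2 fold change ran from 0.40, after a correction for GC content, to 1.08, and the adjusted p from 0.0877 to 0.745, so it passed under none of them. Its deposited form has the sequence close to that of miR-379-3p shown above.

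The 5p arm of the same hairpin showed a smaller difference. miR-411-5p stood at 46.5, 166, 213 and 219.8 CPM in NPC libraries 1 to 4 and at 176, 184, 177 and 223 CPM in NPPC libraries 1 to 4. NPC replicate 1 lay far below the other 7 libraries, and the groups overlapped. Means were 161 ± 80.1 CPM (SD, n = 4) and 190.2 ± 22.5 CPM (SD, n = 4). The log2 fold change of 0.24 ± 0.43 (SE), adjusted p 0.802, turned to -0.056 without NPC replicate 1.

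Of the other tested members of this family, miR-379-3p had a mean of 45.0 CPM in NPC and 80.4 CPM in NPPC, with overlap. The 2 arms of miR-299a had log2 fold changes of -0.13 (3p) and -0.29 (5p). The highest fold change in the cluster, 2.41 ± 1.25 (SE) with an adjusted p of 0.494, was that of miR-380-3p, a low miRNA with 0, 10, 0 and 0 counts in NPC libraries 1 to 4 and 17, 14, 26 and 44 in NPPC. Its NPC level thus rests on 1 library, and the fitted value depends on the default prior count of edgeR.

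The miR-376 family, known for A-to-I editing of its precursors, was sparse in both kinds of exosome. The miR-300 hairpin comes next in genome order and was counted with it here, though its seed is another. Together they have 5 mature names, of which 2 were tested, both with a fold change above 0 and neither with an adjusted p under 0.05. The only tested miR-376 miRNA, miR-376b-3p (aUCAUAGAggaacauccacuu), stood at 0, 19.9, 23.6 and 28.9 CPM in NPC libraries 1 to 4 and at 43.5, 33.6, 31.7 and 31.3 CPM in NPPC libraries 1 to 4. The groups did not overlap, though NPC replicate 4 and NPPC replicate 4 were close, and the miRNA was listed at 0 in NPC replicate 1. Means were 18.1 ± 12.6 CPM (SD, n = 4) and 35.04 ± 5.74 CPM (SD, n = 4), and the log2 fold change was 0.94 ± 0.82 (SE), adjusted p 0.596, or 0.55 without NPC replicate 1. No row of either miRNA carried a base substitution in its name.

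The more abundant tested miRNA of this grouping was miR-300-3p (hairpin at 133874144 to 133874233). By sequence it lies nearer to miR-381-3p, from whose deposited form it differs by 3 of 22 bases, than to miR-376b-3p. It stood at 115, 169, 209 and 118 CPM in NPC libraries 1 to 4 and at 245, 294, 199 and 216 CPM in NPPC libraries 1 to 4. The groups overlapped, as NPC replicate 3 was above NPPC replicate 3. Means were 153 ± 45.0 CPM (SD, n = 4) and 238 ± 41.6 CPM (SD, n = 4), and the log2 fold change was 0.64 ± 0.27 (SE), with an unadjusted p of 0.0427 and an adjusted p of 0.458. It was 0.72 after a correction for GC content and 0.54 without NPC replicate 1.

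All 4 mature names of miR-329, miR-543 and miR-495 were tested, with fold changes above 0 in 3 and a median of 0.72, and 0 passed. miR-495 (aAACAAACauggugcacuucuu, hairpin at 133868285 to 133868368), known to repress the neurotrophin BDNF, stood at 11.2, 72.8, 65.8 and 50.1 CPM in NPC libraries 1 to 4 and at 83.4, 149, 99.9 and 109.6 CPM in NPPC libraries 1 to 4. The groups did not overlap, and NPC replicate 1 was again the lowest library. Means were 49.99 ± 27.6 CPM (SD, n = 4) and 111 ± 28.0 CPM (SD, n = 4). The log2 fold change of miR-495 was 1.14 ± 0.51 (SE), with an unadjusted p of 0.0537 and an adjusted p of 0.458. It was 0.82 without NPC replicate 1 and 0.45 after the GC correction. The other members of this group overlapped between the groups: miR-329-5p had means of 54.2 and 90.8 CPM, miR-329-3p of 15.8 and 25.4 CPM, and miR-543-3p of 57.4 and 55.4 CPM in NPC and NPPC.

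The miR-154 related miRNAs are the largest family, with 20 mature names, of which 11 were tested. Fold changes were above 0 in 9 and below 0 in 2, with a median of 0.44, and 0 had an adjusted p under 0.05. Among the 9 are members below the filter cutoff in some NPC libraries, so this count is no support for a difference. The most abundant, miR-494-3p (hairpin at 133864352 to 133864461), stood at 101, 424, 419 and 418 CPM in NPC libraries 1 to 4 and at 482, 437, 483 and 447 CPM in NPPC libraries 1 to 4. The groups did not overlap, but 3 of the NPC libraries were nearly equal and close to NPPC, while NPC replicate 1 was far lower. Means were 340.3 ± 159.9 CPM (SD, n = 4) and 462 ± 23.7 CPM (SD, n = 4). The log2 fold change was 0.44 ± 0.41 (SE), adjusted p 0.633, and it was 0.15 without NPC replicate 1 with an adjusted p of 0.466.

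Another abundant member of this family, miR-381-3p, stood at 104, 268, 182 and 301 CPM in NPC libraries 1 to 4 and at 226, 249, 249 and 273 CPM in NPPC libraries 1 to 4. NPC libraries enclosed all NPPC libraries, with replicate 1 lowest and replicate 4 highest. Its log2 fold change was 0.22 ± 0.33 (SE), adjusted p 0.743, and 0.0069 without NPC replicate 1. miR-539-3p, which has the same seed, was not tested, with 0 to 6 counts in NPC and 0 to 14 counts in NPPC libraries.

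The 2 arms of miR-382 (hairpin at 133884154 to 133884273) differed in their spread. miR-382-5p stood at 203, 209, 246 and 229 CPM in NPC libraries 1 to 4 and at 232, 227, 189 and 205 CPM in NPPC libraries 1 to 4. These levels overlapped, and NPC replicate 1 lay close to the other NPC libraries in this arm. Its log2 fold change was -0.057 ± 0.19 (SE), adjusted p 0.884. miR-382-3p stood at 0, 82.8, 129.97 and 84.8 CPM in NPC libraries 1 to 4 and at 89.4, 86.0, 81.6 and 103 CPM in NPPC libraries 1 to 4. It was listed at 0 in NPC replicate 1 alone, and its log2 fold change of 0.27 ± 0.89 (SE), adjusted p 0.884, turned to -0.13 without that library.

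The arms of miR-409a (hairpin at 133893410 to 133893522) had fold changes of opposite sign. miR-409a-3p stood at 203, 144, 106 and 168 CPM in NPC libraries 1 to 4 and at 166, 116, 113 and 124 CPM in NPPC libraries 1 to 4, with a log2 fold change of -0.26 ± 0.27 (SE), adjusted p 0.654. NPC replicate 1 was the highest library, and the groups overlapped. miR-409a-5p stood at 83.8, 47.998, 79.3 and 82.9 CPM in NPC libraries 1 to 4 and at 70.1, 119, 97.5 and 67.8 CPM in NPPC libraries 1 to 4. The groups overlapped, and the log2 fold change was 0.27 ± 0.31 (SE), adjusted p 0.681, and -0.013 with total count scaling.

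A low member of this family, miR-487b-3p (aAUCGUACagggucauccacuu, hairpin at 133877121 to 133877216), had an unadjusted p under 0.05. It stood at 11.2, 9.93, 37.1 and 15.4 CPM in NPC libraries 1 to 4 and at 47.1, 48.5, 56.3 and 27.8 CPM in NPPC libraries 1 to 4. The groups overlapped through NPC replicate 3 and NPPC replicate 4. Its log2 fold change was 1.28 ± 0.53 (SE), with an unadjusted p of 0.0400 and an adjusted p of 0.458, from 6, 6, 22 and 8 counts in NPC and 39, 49, 71 and 32 in NPPC. It was 1.11 without NPC replicate 1 and 1.05 after the GC correction. The remaining tested members of the family, miR-410-3p, miR-369-3p, miR-485-3p and miR-496-3p, had log2 fold changes of 0.51, 0.49, 1.61 and 0.49, and the groups overlapped in each.

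Outside these families stand miR-541 and miR-134. miR-541-5p (hairpin at 133892655 to 133892744), the most abundant member in both groups, stood at 326, 631, 601 and 459 CPM in NPC libraries 1 to 4 and at 828, 628, 635 and 690.4 CPM in NPPC libraries 1 to 4. The groups overlapped, since NPC replicate 2 lay just above NPPC replicate 2. Means were 504 ± 140.5 CPM (SD, n = 4) and 695 ± 92.7 CPM (SD, n = 4), and the log2 fold change was 0.46 ± 0.24 (SE), adjusted p 0.494. It was 0.31 without NPC replicate 1 and 0.095 after the GC correction.

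miR-134-5p (hairpin at 133884545 to 133884624), known to repress Limk1 in dendrites, stood at 307, 291, 252 and 237 CPM in NPC libraries 1 to 4 and at 286, 254, 223 and 235 CPM in NPPC libraries 1 to 4. The groups overlapped, and here NPC replicate 1 was the highest of the 8 libraries. Means were 272 ± 32.9 CPM (SD, n = 4) and 249.5 ± 27.8 CPM (SD, n = 4). The log2 fold change of -0.12 ± 0.19 (SE), adjusted p 0.765, was 0.23 after the GC correction. With a GC content of 59.1% miR-134-5p was the most GC-rich tested member.

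**Figure D3:**
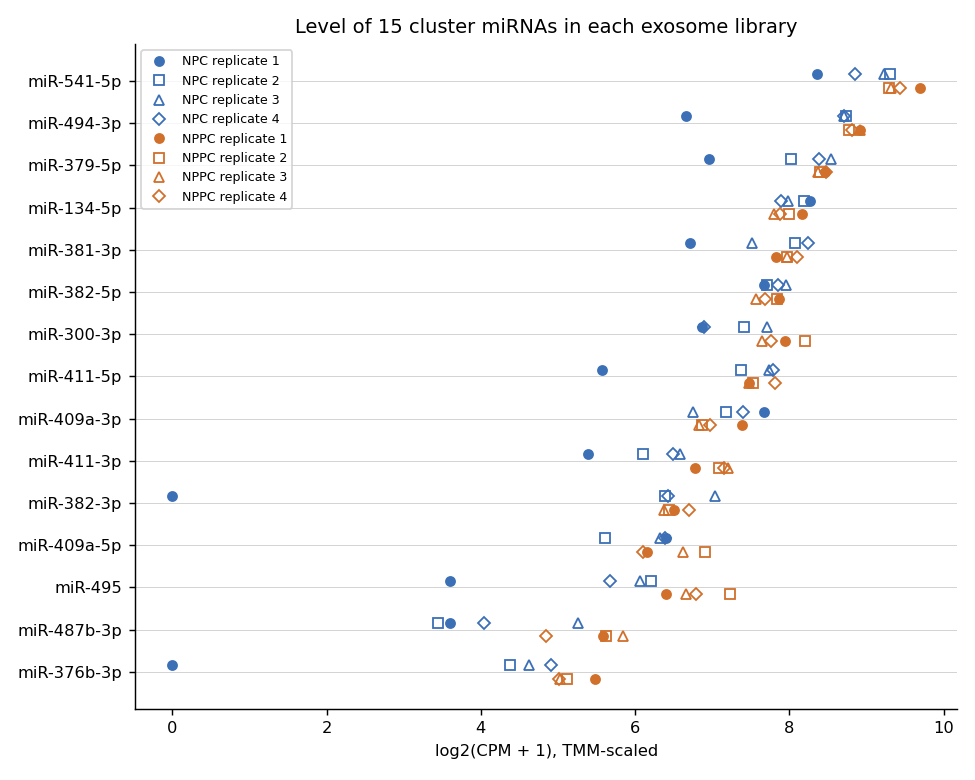
Level of the 15 members given in full, as log2 of CPM + 1 (horizontal axis, scaled by TMM), with 1 point for each of the 4 NPC (blue) and 4 NPPC (orange) libraries. NPPC libraries lie close together in most rows, and the filled blue point, NPC replicate 1, lies apart to the left in miR-494-3p, miR-411-5p, miR-495 and, at 0, in miR-382-3p and miR-376b-3p.

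The low level of many members in NPC replicate 1 went with their base composition. Of the 26 tested members 22 were lower there than the mean of the other NPC libraries, with a median log2 ratio of -1.32, beside 158 of the 252 other rat names with a median of -0.47. This ratio rests on the TMM factor of the library: scaled by total counts, 16 of the 26 members were lower with a median of -0.52, beside 109 of the 252 with a median of 0.32. With TMM scaling, in 16 of the 26 this library alone was the lowest of all 8, a count given without a share over all names. Across members the log2 ratio correlated with GC content with a Pearson value of 0.62 and a Spearman value of 0.63, over 26 miRNAs of the same libraries, which is a description. Members listed at 0 in this library alone numbered 6, of 46 such names in the table: miR-299a-5p, miR-369-3p, miR-376b-3p, miR-380-5p, miR-382-3p and miR-410-3p.

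**Figure D4:**
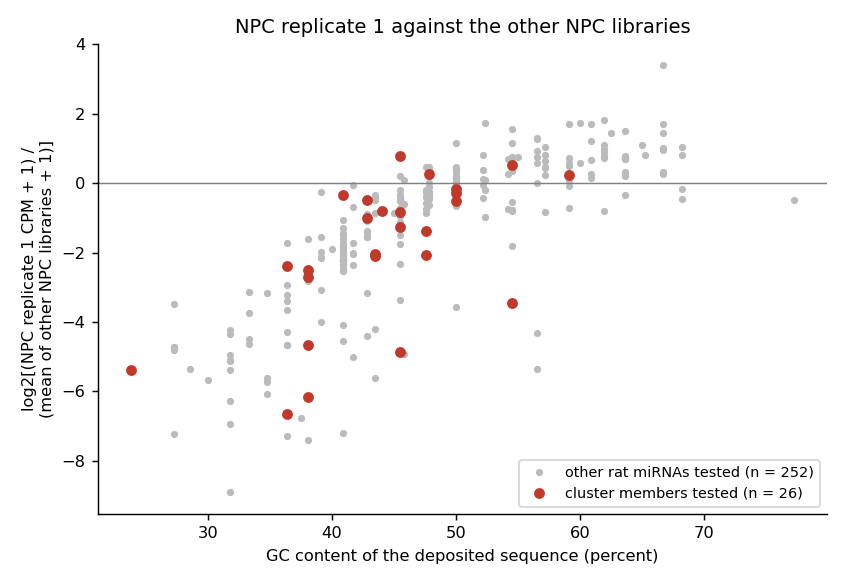
GC content of the deposited sequence (percent, horizontal axis) against the log2 ratio of NPC replicate 1 to the mean of the other NPC libraries, both CPM with 1 added (vertical axis), for 26 tested members (red) and 252 other rat miRNAs (grey). Points of low GC content lie below 0, and 22 of the 26 members are below 0.

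Fold changes stood lower at higher GC content, among the members as among all names. The tested members had a median GC content of 44.7%, against 50% over all names tested. Under 42% GC, 8 of 8 tested members had a fold change above 0 with a median of 0.77, beside 89.7% of 107 names with a median of 0.55. From 42% to 48% GC it was 10 of 12 members with a median of 0.39, beside 56.6% of 83 names with a median of 0.12. Over 48% GC it was 2 of 6 members with a median of -0.090, beside 23.5% of 200 names with a median of -0.31. After the GC correction the members' median was 0.20 and that of all names -0.0064. These limits of GC content were set after the values were seen. The 10 members at the filter cutoff in fewer than 4 NPC libraries are counted here too, and their median GC content was 39.5%. The members' counts above 0 by GC content are therefore no support for a difference.

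The miRNAs just upstream at the same locus, among them the antisense miRNAs of Rtl1 such as miR-127 and miR-434, gave a comparison from the same imprinted region. Of 23 names 16 were tested, 7 with a fold change above 0 and 9 below, and the median was -0.053. None had an adjusted p under 0.05. Their median GC content was 54.5%, against 44.7% in the cluster. They took 0.558% ± 0.259 (SD, n = 4) of counts in NPC and 0.407% ± 0.0620 (SD, n = 4) in NPPC, with 0.935% in NPC replicate 1, where the cluster's own share lay inside the range of the other NPC libraries. Among them miR-127-3p was more abundant than every cluster member, at 2705 ± 791 CPM (SD, n = 4) for NPC and 2186 ± 276 CPM (SD, n = 4) for NPPC. The difference between the cluster and these neighbours was not tested.

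Both arms of a hairpin come from 1 precursor, so their ratio within a library needs no scaling. The arms can still differ in GC content. In 5p and 3p it was 50% and 36.4% for miR-382, 47.6% and 38.1% for miR-379, and 47.6% and 42.9% for miR-411. The part of GC content in these ratios was not tested. The ratio was tested with limma over 71 rat hairpins, of which 6 belong to the cluster, and 0 hairpins (0%) had an adjusted p under 0.05. At an unadjusted p under 0.05 stood 8 (11.3%), none of them in the cluster. As log2 of 5p over 3p, miR-379 favoured the 5p arm with 3.48, 2.49, 2.22 and 2.74 in NPC libraries 1 to 4 and 1.86, 1.93, 2.09 and 2.52 in NPPC libraries 1 to 4. The groups overlapped, and the difference of NPPC minus NPC was -0.63 (95% interval -1.44 to 0.17, adjusted p 0.529 by limma). miR-411 stood at 0.18, 1.27, 1.17 and 1.29 in NPC and at 0.70, 0.45, 0.27 and 0.67 in NPPC. Here NPC replicate 1 was the lowest and its companions in NPC all exceeded the NPPC values. The difference for miR-411 was -0.45 (95% interval -1.23 to 0.33, adjusted p 0.535 by limma), and -0.72 without NPC replicate 1 with an adjusted p of 0.301. The uncertain split of reads between miR-379-3p and miR-411-3p bears on both ratios.

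In miR-382 the mean ratio was set by 1 library. It stood at 6.78, 1.32, 0.91 and 1.42 in NPC and at 1.36, 1.39, 1.20 and 0.99 in NPPC, the first value coming from 109 counts of the 5p arm and 0 of the 3p arm. The difference of -1.37 (95% interval -4.14 to 1.40, adjusted p 0.570 by limma) was 0.022 without that library. Among the 6 cluster hairpins miR-299a lay furthest to the 3p side, with means of -2.56 in NPC and -2.09 in NPPC and a difference of 0.48 (95% interval -1.48 to 2.43), or -0.43 without NPC replicate 1. miR-409a also favoured the 3p arm, with means of -1.06 and -0.57, and miR-329 the 5p arm, with means of 2.16 and 1.85. The NPC mean of miR-329 includes 5.64 in NPC replicate 3, from 49 counts of the 5p arm and 0 of the 3p arm. Its ratio was 0.17, 2.21 and 0.61 in NPC replicates 1, 2 and 4. The intervals are wide, so the data do not show that arm use was alike in the groups.

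**Figure D5:**
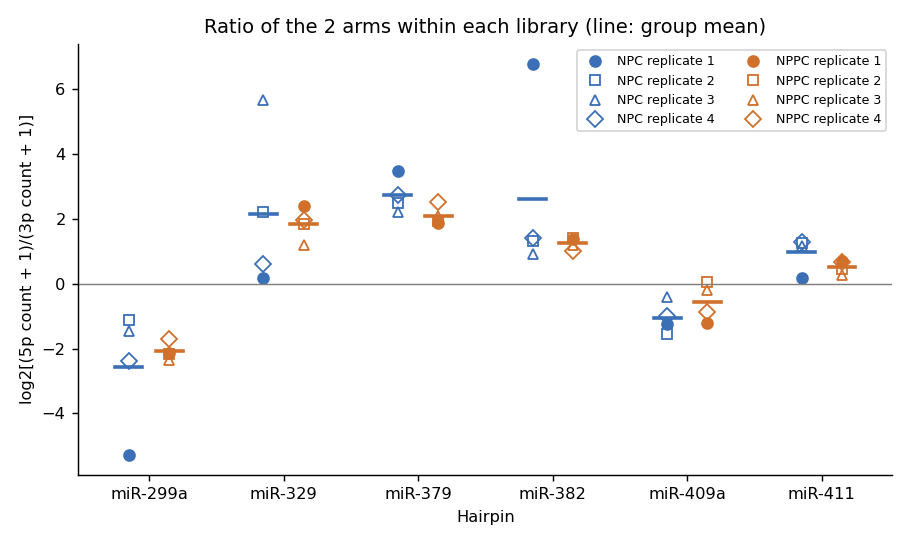
Log2 of the 5p count over the 3p count, each with 1 added (vertical axis), for the 6 cluster hairpins tested, with a point for each of the 4 NPC (blue) and 4 NPPC (orange) libraries and a line at each group mean. NPC replicate 1 stands apart at 6.78 in miR-382 and at 0.18 in miR-411.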

How the data were processed

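Small RNA of 8 exosome libraries, 4 NPC and 4 NPPC, was analysed, with groups and replicate numbers taken from the sample titles. Per the labels' protocols, exosomal RNA was purified by kit and turned into TruSeq small RNA libraries. The submitters' processing notes name CASAVA 1.8. The aligner, genome build and miRBase version were not given in the sources used here. As values the authors deposited an estimated count for each of 1512 rows, used here, and a scaled signal for each row, which equals the count times 1 factor per library within 0.00244%.

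Counts were summed per mature name and rounded. edgeR 4.0.16 in R 4.3.3 was run with TMM factors, filterByExpr with a minimum count of 10, and the quasi-likelihood test (two-sided, no term but group), with Benjamini-Hochberg adjustment over 390 names. Log2 CPM, used for the GC correction and the deviations from group means below, had a prior count of 2. Fold changes used the default prior count of edgeR instead. Arm ratios were tested with limma 3.58.1, two-sided, on log2 of 5p over 3p counts with 1 added, for rat hairpins with a mean of at least 10 counts in each arm. Library totals of 329011 to 1416940 counts limit the precision of low members.

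Deviations from the group means of libraries with the same number correlated at 0.56, 0.12, 0.37 and 0.24, and those of libraries with different numbers at -0.48 to 0.35. No label says what a number stands for. The tests given are unpaired, and the replicate block is an alternative. Alternatives were other scalings (DESeq2 size factors, total counts, upper quartile), no filter or one of 10 CPM in 4 libraries, other tools (DESeq2 1.42.0, limma-voom), the replicate block, table rows without summing, rat names only, leaving out each library, and a GC correction with and without the block. That correction takes as offset a loess fit, span 0.75, on GC percent. The fitted value is a library's log2 CPM minus the mean of that miRNA over the libraries. Sums per sequence, libraries thinned in 1 draw, the GC correction without NPC replicate 1, the members at the filter cutoff in all 4 NPC libraries and total scaling of NPC replicate 1 were chosen after seeing the data. For arm ratios a pseudocount of 0.5, a minimum of 50 counts, an exact permutation test over 70 arrangements, the block and each library left out were tried.

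Values in every library are given for the 12 members with the highest mean CPM, for members with an unadjusted p under 0.05 and for members whose groups do not overlap, 15 in all. The members, the lists and this rule were chosen with earlier results of these data known. Scripts used Python 3.11.15.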

Additional observations from a re-analysis of the deposited data

Results flagged for a closer look

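In 6 of 54 sets of 4 values (a measure in the libraries of 1 group), 1 value stood far from the rest. About 1 set in 20 does so where values are independent and normally distributed. These sets share the same 8 libraries, so the 6 of 54 cannot be measured against that rate. miR-494-3p stood at 101 CPM in NPC replicate 1 and at 418 to 424 CPM in the other NPC libraries. The log2 ratio of 5p to 3p counts of miR-382 was 6.78 in NPC replicate 1 and 0.91 to 1.42 in the others, and that of miR-411 was 0.18 and 1.17 to 1.29. miR-409a-5p stood at 47.998 CPM in NPC replicate 2 against 79.3 to 83.8 CPM. miR-411-5p stood at 223 CPM in NPPC replicate 4 against 176 to 184 CPM. NPPC replicate 1, the shallowest of its group, had 31 members above 0 against 36 to 37.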

How the results depend on the processing

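In each of the 23 alternatives run, 0 cluster members had an adjusted p under 0.05. The number of mature names called, 1 with all 8 libraries, was 8 with no filter, 6 by DESeq2, 0 with the replicate block, 0 over table rows, 2 with the GC correction and the replicate block, and 0 to 1 with a library left out. The replicate block changed no other adjusted call, but at an unadjusted p under 0.05 it put miR-495 in place of miR-300-3p. Members at an unadjusted p under 0.05, 3 of 41 such names with all libraries, were 1 of 103 with no filter. They were 1 of 31 with the GC correction and 1 of 58 with the block added. With a library left out they numbered 1 to 6. The 6 came without NPC replicate 3, among 65 such names of 429 tested. The 1 came without NPC replicate 4, NPPC replicate 2 or NPPC replicate 3, among 35, 29 and 23 such names. The members' median log2 fold change ran from 0.20, without NPC replicate 1, to 0.78 by limma-voom, and was 0.30 over members at the filter cutoff in all 4 NPC libraries. Of the 15 members given in full 7 kept a fold change above 0 in every alternative that gave a value: miR-541-5p, miR-379-5p, miR-300-3p, miR-411-3p, miR-495, miR-487b-3p and miR-376b-3p. Some of the 15 were chosen by p or by lack of overlap in these same libraries, which every alternative reuses. A kept sign is therefore no support for a difference, and no share over all names is given. None of the following changes of sign crossed a threshold, and their cause was not tested.

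With the GC correction miR-134-5p was 0.23, miR-382-5p 0.014 and miR-382-3p -0.097, and with the block added 0.20, 0.0085 and -0.086. With the GC correction without NPC replicate 1 miR-494-3p was -0.024, miR-134-5p 0.43, miR-381-3p -0.14, miR-382-5p 0.012, miR-411-5p -0.068, miR-409a-3p 0.26 and miR-382-3p -0.36. With a library left out miR-411-5p ran from -0.056 (without NPC replicate 1) to 0.47, miR-382-3p from -0.13 (without NPC replicate 1) to 0.75 and miR-382-5p from -0.087 to 0.062. The arm differences then ran from -0.43 (without NPC replicate 1) to 0.96 for miR-299a, from -0.97 to 0.85 (without NPC replicate 3) for miR-329 and from -1.93 to 0.022 (without NPC replicate 1) for miR-382. With total count scaling miR-409a-5p was -0.013. miR-382-5p, near 0 throughout, was 0.055 with no filter, 0.048 over table rows and 0.0061 with sums per sequence, and above 0 without NPC replicate 3, NPPC replicate 3 or NPPC replicate 4. Depth limits most the members in NPC replicate 1, where the whole cluster held 1030 counts.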
